A study of Mus musculus with 18 samples.

Results

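The early response of T cells to their receptor was followed here through 9 genes of 15402 in the deposited table. They are the Nr4a family of nuclear receptors (Nr4a1, Nr4a2 and Nr4a3), the early growth response factors Egr1, Egr2 and Egr3, the calcium-driven factors Nfatc1 and Nfatc2, and the surface protein Cd69. The members were chosen by name, each had 1 row in the table, and all 9 were among the 13190 genes tested. RNA was sequenced from 6 T-cell populations of lymph nodes that drain the abdominal skin, on day 5 after 3% oxazolone was applied to it. Oxazolone is a contact sensitiser, and every population came from sensitised animals, so no library shows these genes without it.

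All mice were females of the strain that the labels give as C57/BL6 Foxp3Timer Foxp3-IRES-GFP. The labels give no age, and the study's methods describe sensitised mice as several weeks old. They carry a fluorescent Timer protein under Foxp3 control, which turns from a short-lived blue form into a long-lived red form, together with a GFP reporter of Foxp3. CD4+ T cells without GFP or Timer were sorted as CD44lo cells (Tnaive) and CD44hi cells (Teff, activated effector cells). CD4+GFP+ cells were sorted by Timer into Pers1 and Pers2 (persistent Foxp3 transcription), PAt (between persistent and arrested) and Arrested cells. The subset labels name the same 4 populations differently, as de novo, maturing, mature and decaying Foxp3 expressers, and the names of the design text are used here. Each population had 3 replicates, each pooled from 3 mice, which gave 18 libraries. A library is therefore the mean of a sorted pool, and in such bulk RNA fewer cells that express a gene and less RNA per cell cannot be told apart.

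Levels are log2 normalised counts as deposited, with no pseudocount, and a difference of 1 on this scale is a 2-fold difference. Values of a population are given in the order of replicates 1, 2 and 3, and means are given ± SD (n = 3). A gene was called in limma where its adjusted p was below 0.05 and its log2 fold change was beyond 1 in either direction. The sort markers followed the labels. Foxp3 ranged from 14.36 to 14.85 in the GFP+ libraries, 11.27 to 11.38 in Tnaive and 10.38 to 10.64 in Teff, and Cd44 was 9.47 to 9.72 in Tnaive and 13.04 to 13.05 in Teff. The sorted cells also held RNA of other cell types, least in Tnaive for B cells. The log2 of the summed level of 10 B cell markers was 10.2 to 10.7 in Tnaive, 12.9 to 13.5 in Teff, 11.5 to 11.7 in Pers1, 11.5 to 11.7 in Pers2, 12.4 to 12.7 in PAt and 12.1 to 12.3 in Arrested. None of the defining markers of other cell types that had a row was listed at 0. The transform is not given, so a value above 0 need not mean that a gene was detected. Cd14 stayed between 0.45 and 0.60 in all libraries, and Fcgr1 and Klra8 had no row.

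When the T-cell receptor binds its ligand, calcium enters the cell and the phosphatase calcineurin strips phosphate from NFAT proteins, which then move into the nucleus. In parallel, the MAP kinase pathway acts through serum response factor and its partners to switch on Egr genes. Nr4a genes belong to the same wave and encode orphan nuclear receptors, of which Nr4a1 (Nur77) and Nr4a3 (Nor1) are widely used as reporters of recent receptor signalling. In Treg, Nr4a factors promote Foxp3 transcription, and NFAT works together with Foxp3 at target genes. Egr2 and Egr3 are also known as brakes on T-cell activation, and Cd69 holds activated lymphocytes in the node by drawing the egress receptor S1pr1 off the surface. NFAT activity is set mainly by where the protein is, so a transcript level does not measure it.

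The promoter sequences of the Nr4a genes and of Egr2 are printed because these are the members for which a RefSeq window (GRCm38.p6, 250 bases before to 50 after the start) holds at least 2 copies of the letters TGACG. Windows were found for 5 of the 9 members, namely Nr4a1, Nr4a2, Nr4a3, Egr2 and Nfatc2. The Nr4a1 window is chr15:101266596-101266895 on the plus strand, the Nr4a2 window is chr2:57123954-57124253 on the minus strand, the Nr4a3 window is chr4:48045055-48045354 on the plus strand, and the Egr2 window is chr10:67537619-67537918 on the plus strand. Each is written 5′ to 3′ along the transcript, and capitals mark TGACG, the core of a cyclic AMP response element, read on either strand (CGTCA where it lies on the other strand), and in Egr2 also a CArG box.
Nr4a1: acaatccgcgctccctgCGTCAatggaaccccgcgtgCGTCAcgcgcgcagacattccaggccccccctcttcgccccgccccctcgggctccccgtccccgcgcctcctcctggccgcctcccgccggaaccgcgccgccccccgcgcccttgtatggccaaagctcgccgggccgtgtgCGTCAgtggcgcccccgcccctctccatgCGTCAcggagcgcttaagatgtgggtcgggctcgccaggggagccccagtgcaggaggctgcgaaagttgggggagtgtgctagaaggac
Nr4a2: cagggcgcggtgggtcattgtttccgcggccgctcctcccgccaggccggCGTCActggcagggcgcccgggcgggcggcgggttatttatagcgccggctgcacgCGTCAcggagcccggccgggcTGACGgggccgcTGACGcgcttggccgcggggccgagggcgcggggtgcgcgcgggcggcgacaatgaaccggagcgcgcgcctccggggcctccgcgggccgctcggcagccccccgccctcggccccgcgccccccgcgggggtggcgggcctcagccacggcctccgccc
Nr4a3: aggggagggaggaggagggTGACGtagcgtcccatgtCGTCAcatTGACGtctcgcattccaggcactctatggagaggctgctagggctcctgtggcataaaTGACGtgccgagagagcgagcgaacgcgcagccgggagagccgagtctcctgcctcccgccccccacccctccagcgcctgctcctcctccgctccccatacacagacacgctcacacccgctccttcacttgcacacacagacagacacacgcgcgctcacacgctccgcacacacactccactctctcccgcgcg
Egr2: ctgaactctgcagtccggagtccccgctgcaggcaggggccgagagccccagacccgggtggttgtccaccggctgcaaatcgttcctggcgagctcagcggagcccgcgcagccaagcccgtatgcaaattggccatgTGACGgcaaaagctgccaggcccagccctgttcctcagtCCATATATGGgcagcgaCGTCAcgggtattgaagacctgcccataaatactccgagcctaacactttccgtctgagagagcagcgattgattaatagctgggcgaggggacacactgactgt

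The TGACG core occurred 4 times in the window of each of the Nr4a genes and 2 times in that of Egr2. The printed windows were picked by this core, for each gene the first window with the most copies. The shares of all windows are therefore background and no test of the core. Of 32851 promoter windows of this length, 20.8% held at least 1 core, 5.01% at least 2 and 0.231% at least 4. In Nr4a1 the cores nearest the start began at -69 and -40, and in Nr4a2 they began at -123 and -111. The Nr4a3 cores lay at -231, -213, -205 and -147. The Egr2 window held 1 CArG box, the site of serum response factor, read CCATATATGG and found from -72 to -63, as did 1.63% of all windows, and the Nr4a windows held none. No window of the 5 members held the full palindrome TGACGTCA, which contains the core on both strands and was in 1.79% of windows, or the Nr4a monomer site AAAGGTCA, which was in 1.51%. The Egr site GCGNGGGCG was found once in the Nr4a1 and once in the Nr4a2 window (5.55% of windows). The NFAT core GGAAA was in 61.3% of windows, with 3 copies in 1 of the Nfatc2 windows and in 1 Egr2 window not printed here, and none in the Nr4a1 and Nr4a3 windows. Of the 5 Egr2 windows, 3 have starts close to each other and share these motifs. The Egr2 windows that begin at 67535249 and 67537316 held no TGACG core. These are letter matches only, and binding was not measured.

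Nr4a1 and Nr4a3 were highest in PAt and Arrested cells. Nr4a1 (ENSMUSG00000023034.7, chr15:101254269-101274795, plus strand) read 12.66, 12.43 and 12.10 in Tnaive and 12.34, 11.91 and 11.78 in Teff. In the persistent populations it read 12.75, 12.33 and 12.35 in Pers1 and 12.75, 12.63 and 12.49 in Pers2. PAt libraries had Nr4a1 at 13.76, 13.38 and 13.42, and Arrested libraries at 13.75, 13.38 and 13.18. All 6 PAt and Arrested libraries lay above the other 12, the means being 13.52 ± 0.21 in PAt and 12.01 ± 0.29 in Teff, the lowest population. In the order of means from PAt down to Teff, Arrested differed from its lower neighbour Pers2 (difference 0.81, adjusted p = 0.000164) and Tnaive from Teff (0.38, adjusted p = 0.0452), and no other neighbours differed.

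Nr4a2 (Nurr1, ENSMUSG00000026826.13, chr2:57106830-57124003, minus strand) was the most variable of the 9 genes. It read 7.43, 7.06 and 6.97 in Tnaive and 9.34, 8.08 and 8.00 in Teff. Its Pers1 values were 9.05, 8.67 and 8.23, and those of Pers2 were 9.57, 9.17 and 9.09. PAt libraries read 9.47, 9.46 and 8.97, and Arrested libraries 9.40, 8.37 and 8.53. Every library of the other populations lay above all 3 Tnaive libraries, while replicate 1 of Teff and of Arrested stood well above replicates 2 and 3 of the same population. The population means spanned 2.15 on the log2 scale, 4.44-fold, wider than for 92.8% of tested genes, and the SD within populations of 0.46 was larger than for 99.6% of them. Of its neighbours in the order, only Teff (8.47 ± 0.75) and Tnaive (7.15 ± 0.24) differed (1.32, adjusted p = 0.000656). With the replicate as a block, Pers2 also differed from Arrested (0.51, adjusted p = 0.0119).

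Nr4a3 (ENSMUSG00000028341.9, chr4:48045153-48086447, plus strand) differed by small steps from Tnaive, the lowest, to PAt, the highest. It read 9.73, 9.19 and 9.52 in Tnaive and 10.03, 9.66 and 9.87 in Teff. Pers1 had 10.25, 10.15 and 9.98, and Pers2 had 10.55, 10.27 and 10.45. The values were 11.00, 10.82 and 10.93 in PAt and 10.86, 10.41 and 10.57 in Arrested. PAt (10.91 ± 0.09) and Tnaive (9.48 ± 0.27) were farthest apart, and the libraries of neighbouring populations overlapped except for Pers1 and Pers2. In the fit without a block only Teff and Tnaive differed among the 5 neighbour pairs (0.38, adjusted p = 0.0154). With the block all 5 steps passed, the largest adjusted p being 0.0369 for Arrested over Pers2, so that the order was PAt, Arrested, Pers2, Pers1, Teff and Tnaive.

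The Egr genes differed among themselves in where they were highest. Egr1, on chromosome 18 (ENSMUSG00000038418.7), is the classical immediate early member. It read 12.33, 12.67 and 12.56 in Tnaive and 12.78, 12.78 and 12.83 in Teff. Pers1 libraries stood at 12.32, 12.27 and 12.31, and Pers2 libraries at 12.14, 12.24 and 12.18. In PAt it was 12.44, 12.60 and 12.86, and in Arrested 12.74, 12.82 and 13.00. The 6 persistent libraries were below the other 12, and the gap from Tnaive to Pers1, the next lower population, was 0.22 (adjusted p = 0.0308), the only neighbour pair that differed. The means ran from 12.85 ± 0.13 in Arrested to 12.19 ± 0.05 in Pers2.

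Egr2 (ENSMUSG00000037868.15, chr10:67535475-67542188, plus strand) was highest in Teff and lowest in Tnaive. Its values were 9.25, 9.28 and 9.39 in Tnaive and 10.95, 10.93 and 11.13 in Teff. Among GFP+ cells it read 10.38, 10.26 and 10.38 in Pers1 and 10.17, 10.12 and 10.29 in Pers2. It read 10.56, 10.33 and 10.53 in PAt and 10.59, 10.35 and 10.49 in Arrested. The 12 GFP+ libraries thus formed 1 band between 10.12 and 10.59, with Teff above and Tnaive below it and no overlap. Teff exceeded Arrested by 0.52 (adjusted p = 1.49e-05) and Pers2 exceeded Tnaive by 0.89 (adjusted p = 2.68e-09), whereas the 4 GFP+ populations did not differ between neighbours. Farther apart in the order, PAt and Arrested each exceeded Pers2 by 0.28 (adjusted p = 0.0051 and 0.00425), beside 60% and 60.5% of tested genes that differed.

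Egr3 (ENSMUSG00000033730.4, chr14:70077203-70082614, plus strand) was the 1 member that separated Pers1 from Pers2 in the fit without a block. It read 10.40, 10.31 and 10.38 in Tnaive and 11.74, 11.64 and 11.86 in Teff. The Pers1 libraries lay close together at 11.53, 11.50 and 11.51, and the Pers2 libraries read 10.93, 10.81 and 10.97. PAt had 10.97, 10.82 and 11.03 and Arrested 11.38, 10.98 and 11.19. Pers1 (11.51 ± 0.01) was second only to Teff (11.75 ± 0.11), and no Pers1 library overlapped those of Teff or Pers2. Teff differed from Pers1 (0.24, adjusted p = 0.0192), Pers1 from Arrested (0.33, adjusted p = 0.00142) and Pers2 from Tnaive (0.54, adjusted p = 5.84e-06).

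Both NFAT genes were highest in Teff and lowest in Tnaive. Nfatc1, on chromosome 18 (ENSMUSG00000033016.16), is the NFAT gene whose short form is induced by NFAT itself. It read 12.61, 12.46 and 12.46 in Tnaive and 14.27, 14.06 and 14.25 in Teff. Pers1 had 13.57, 13.52 and 13.45, and Pers2 had 13.50, 13.45 and 13.38. The levels were 13.02, 12.86 and 12.86 in PAt and 13.23, 13.03 and 12.92 in Arrested. Teff (14.19 ± 0.11), the persistent pair, the PAt and Arrested pair and Tnaive (12.51 ± 0.09) formed 4 levels that did not overlap. Each of the 3 steps between these levels differed, by 0.68 from Teff to Pers1 (adjusted p = 7.08e-08), 0.38 from Pers2 to Arrested (adjusted p = 9.65e-05) and 0.40 from PAt to Tnaive (adjusted p = 7.54e-05). The annotation places an antisense gene, AC123818.1, over 2571 bases of Nfatc1, and whether reads were counted by strand is not given in the sources used here.

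Nfatc2 (ENSMUSG00000027544.16, chr2:168476410-168601657, minus strand) encodes the NFAT protein that resting T cells already hold. It read 12.08, 11.88 and 11.93 in Tnaive and 12.69, 12.50 and 12.68 in Teff. Pers1 libraries read 12.69, 12.51 and 12.50, and Pers2 libraries 12.70, 12.58 and 12.55. PAt stood at 12.33, 12.12 and 12.30 and Arrested at 12.45, 12.32 and 12.26. The Teff, Pers1 and Pers2 libraries mingled between 12.50 and 12.70, above all PAt, Arrested and Tnaive libraries. Pers1 exceeded Arrested by 0.22 (adjusted p = 0.0129) and PAt exceeded Tnaive by 0.28 (adjusted p = 0.0035).

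Cd69 (ENSMUSG00000030156.5, chr6:129267325-129275436, minus strand) was the member that varied least between populations. It read 13.10, 12.55 and 12.27 in Tnaive and 12.63, 12.28 and 11.90 in Teff. Pers1 had 12.45, 12.28 and 12.37, and Pers2 had 12.37, 12.18 and 12.37. PAt libraries read 12.71, 12.53 and 12.14, and Arrested libraries 12.61, 12.27 and 12.39. The libraries of all 6 populations overlapped. The means spanned 0.37, wider than for only 25.2% of tested genes, whereas the SD within populations of 0.27 was larger than for 98.1% of them. No neighbours in its order, from Tnaive (12.64 ± 0.42) to Teff (12.27 ± 0.37), differed with or without the block.

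**Figure D1:**
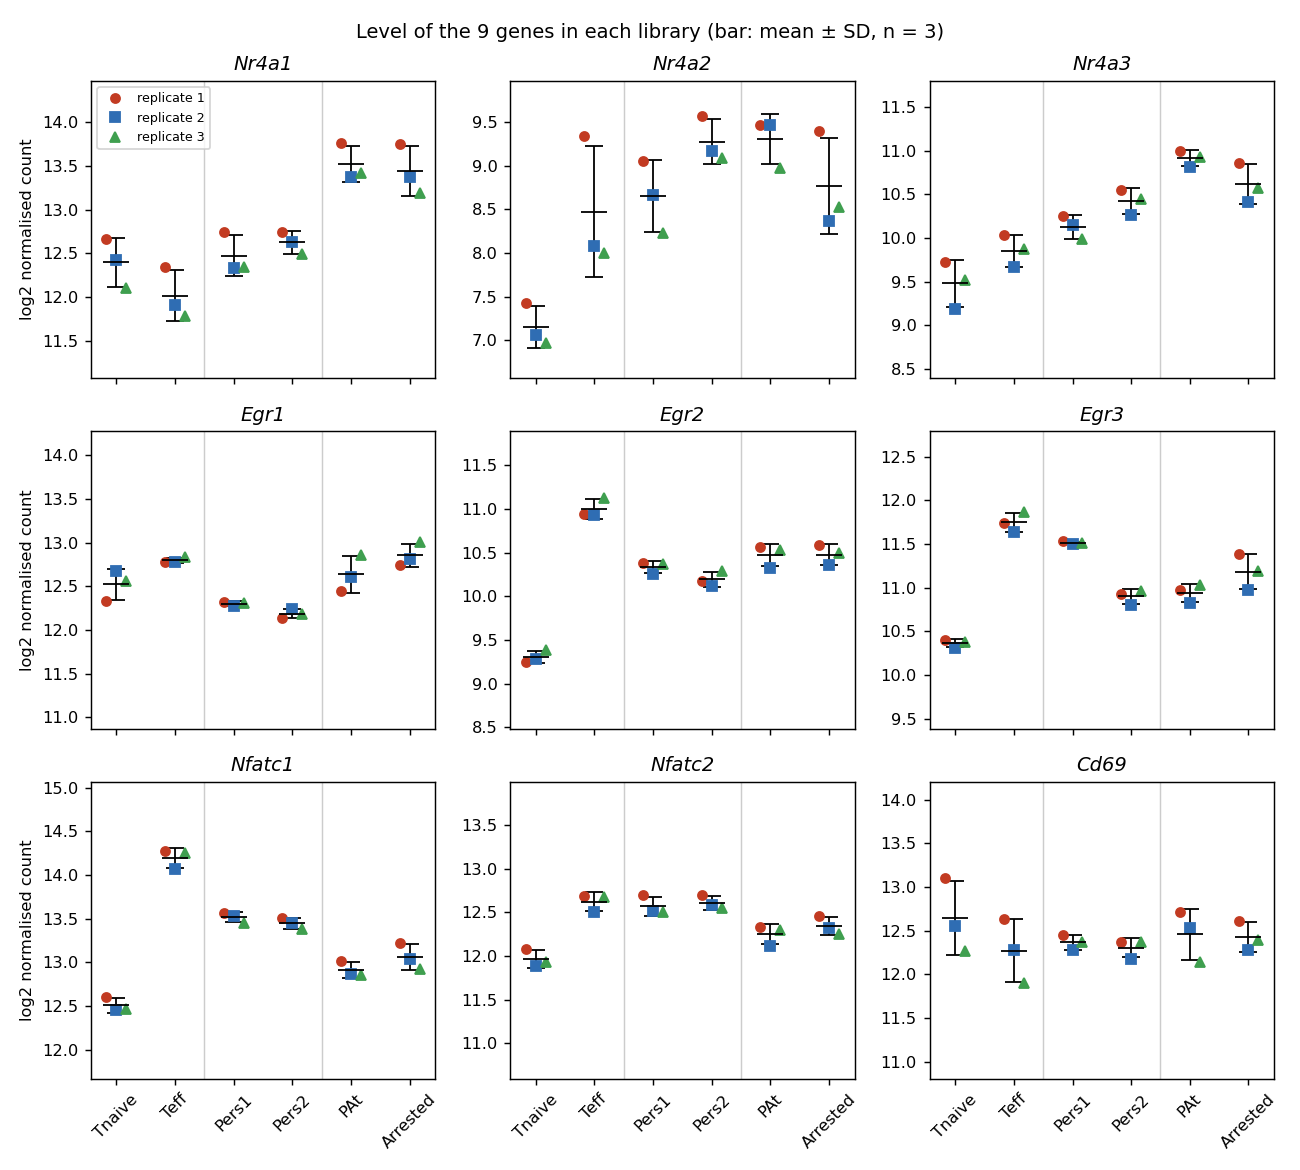
Level of the 9 genes (y axis, log2 normalised count) in the 18 libraries by population (x axis), with 1 point per library, a colour and shape for each replicate number, and bars for the mean ± SD (n = 3). Each panel spans the same number of log2 units. Nr4a1 is highest in PAt and Arrested, Nfatc1 falls from 14.19 in Teff to 12.51 in Tnaive, and replicate 1 (red) is the highest point in all 6 populations for Nr4a1, Nr4a2, Nr4a3, Nfatc1, Nfatc2 and Cd69.

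Levels of different genes were compared only after the log2 of the exon length in kb was subtracted. On this log2 scale per kb, Nr4a1 (10.20 to 11.71 over the population means) stood above Nr4a3 (6.90 to 8.33) and Nr4a2 (5.13 to 7.28) in every population. Egr1 was the most abundant Egr gene (10.02 to 10.69), ahead of Egr3 (8.22 to 9.61) and Egr2 (7.54 to 9.23). Nfatc1 (9.61 to 11.29) was above Nfatc2 (8.56 to 9.22) in each population. Among the Egr genes the most abundant was not the one with the widest range, since the means of Egr1 spanned 0.67 and those of Egr2 spanned 1.69, whereas Nfatc1 spanned 1.68 and Nfatc2 0.66.

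Effector cells were compared with naive cells to see how far the genes differ between CD44hi and CD44lo cells outside Treg. Egr2, Nfatc1, Egr3 and Nr4a2 were higher in Teff than in Tnaive, while Nr4a1, the gene most used as a marker of recent receptor signals, was not. The 4 genes passed both thresholds, and none was called lower, against 8.88% of all tested genes called higher and 2.28% called lower. Egr2 was 3.23-fold higher (1.69 ± 0.08 (SE) log2, adjusted p = 1.01e-13) and Nfatc1 3.21-fold (1.68 ± 0.071 (SE), adjusted p = 1.92e-14). The log2 fold change of Egr3 was 1.38 ± 0.081 (SE) (adjusted p = 4.23e-12). Nr4a2 was 2.5-fold higher (1.32 ± 0.30 (SE), adjusted p = 0.000656), but its fold change was 0.89 without Teff replicate 1 and 0.97 after quantile normalization, both under the fold threshold.

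At the adjusted p alone, which 31.3% of tested genes passed upwards and 27.7% downwards, Nfatc2 (0.66), Nr4a3 (0.38) and Egr1 (0.28) were also higher in Teff and Nr4a1 was lower (-0.38, adjusted p = 0.0452). With the replicate block, Nr4a3 (0.000278), Egr1 (0.00193) and Nr4a1 (3.06e-05) passed with smaller adjusted p values, and Nr4a1 was lower in Teff at each of the 3 replicate numbers. In the fit without the block, leaving out single libraries ended these 3. Nr4a1 no longer passed without Tnaive replicate 1 (adjusted p = 0.221), Tnaive replicate 2 (0.101), Teff replicate 2 (0.131) or Teff replicate 3 (0.203). With all libraries, Nr4a1 also missed with robust moderation (0.118) and without the variance trend (0.0782). Nr4a3 missed without Teff replicate 1 (0.0867) or Tnaive replicate 2 (0.132), and Egr1 without Tnaive replicate 1 (0.089). Cd69 had -0.37 (adjusted p = 0.079), and it passed with the replicate block (0.0091) and without Teff replicate 1 (-0.55, adjusted p = 0.0143) or Tnaive replicate 3 (-0.55, adjusted p = 0.0119). For 6 of the 9 genes, all but Nr4a1, Nr4a3 and Cd69, the 3 Teff libraries lay above the 3 Tnaive libraries, as they did for 34.1% of tested genes. Nr4a1 and Egr1 are also on a list of 25 genes that tissue handling raises. Of that list 11 genes were lower in Teff at the adjusted p, Nr4a1 among them, and 4 were higher, Egr1 among them. The median of the list was -0.28, and its part was not tested.

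Markers of other cells moved with this comparison. All 10 B cell markers and 9 of the 11 tested markers of macrophages, monocytes and dendritic cells were called higher in Teff than in Tnaive. The log2 of the summed level of the latter list was 12.0 to 12.4 in Teff and 8.80 to 9.68 in the other populations, and that of NK and CD8 cell markers was 11.9 to 12.3 in Teff and 10.1 to 11.6 elsewhere. Of the 7 tested NK and CD8 cell markers, 4 were called higher in Teff than in Tnaive and 2 lower. The part of these other cells in the levels of Egr2, Egr3, Nfatc1 and Nr4a2 in Teff was not tested.

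The persistent populations were set against PAt and Arrested to ask how these genes vary with ongoing Foxp3 transcription. The 9 genes moved both ways. Nr4a1, Nr4a3, Egr1 and Egr2 were lower in Pers1 and Pers2, Nfatc1, Nfatc2 and Egr3 were higher, and no change reached the fold threshold. None of the 9 was called, against 7.51% of tested genes, and 7 passed the adjusted p alone, against 70.9%. Nr4a1 stood at 0.525 times its PAt and Arrested level (-0.93 ± 0.11 (SE) log2, adjusted p = 2.52e-07), Egr1 at 0.706 times (-0.50 ± 0.062 (SE), adjusted p = 3.33e-07) and Nr4a3 at 0.712 times (-0.49 ± 0.09 (SE), adjusted p = 5.74e-05). Egr2 differed by -0.21 ± 0.056 (SE) (adjusted p = 0.00247).

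Nfatc1 was 1.41-fold higher in the persistent populations (0.49 ± 0.051 (SE), adjusted p = 2.18e-08) and Nfatc2 1.23-fold (0.29 ± 0.052 (SE), adjusted p = 4.24e-05). Egr3 had 0.15 ± 0.058 (SE) (adjusted p = 0.0297), a difference that missed the adjusted p after quantile normalization (0.295) and without Pers1 replicate 1 (0.0535), Pers2 replicate 1 (0.0578) or 3 (0.07), PAt replicate 2 (0.0873) or Arrested replicate 2 (0.114). The interval of the difference was -0.51 to 0.37 for Nr4a2 (adjusted p = 0.778) and -0.37 to 0.15 for Cd69 (adjusted p = 0.453), so neither was shown to differ. The 6 persistent libraries did not overlap the 6 PAt and Arrested libraries for Nr4a1 and Egr1, which were lower, and for Nfatc1 and Nfatc2, which were higher, and 45.8% of tested genes separated in this way.

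The list of 25 handling genes, which holds Nr4a1 and Egr1, moved with them here. Of its members 16 were lower in the persistent populations at the adjusted p, Nr4a1 and Egr1 among them, and 5 were higher. Of all tested genes 70.9% passed it in either direction and 7.51% were called. The 5 genes of the list that were called were all lower and include Jun (-2.09), Klf4 (-1.64), Fosb (-1.53) and Fos (-1.46). The median of the list was -0.50, which is the value of Egr1 itself, against -0.01 over all tested genes. All 10 B cell markers were lower too at the adjusted p, 4 of them called, with summed levels as given above. The part of handling and of B cells in the Nr4a1 and Egr1 difference was not tested.

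**Figure D2:**
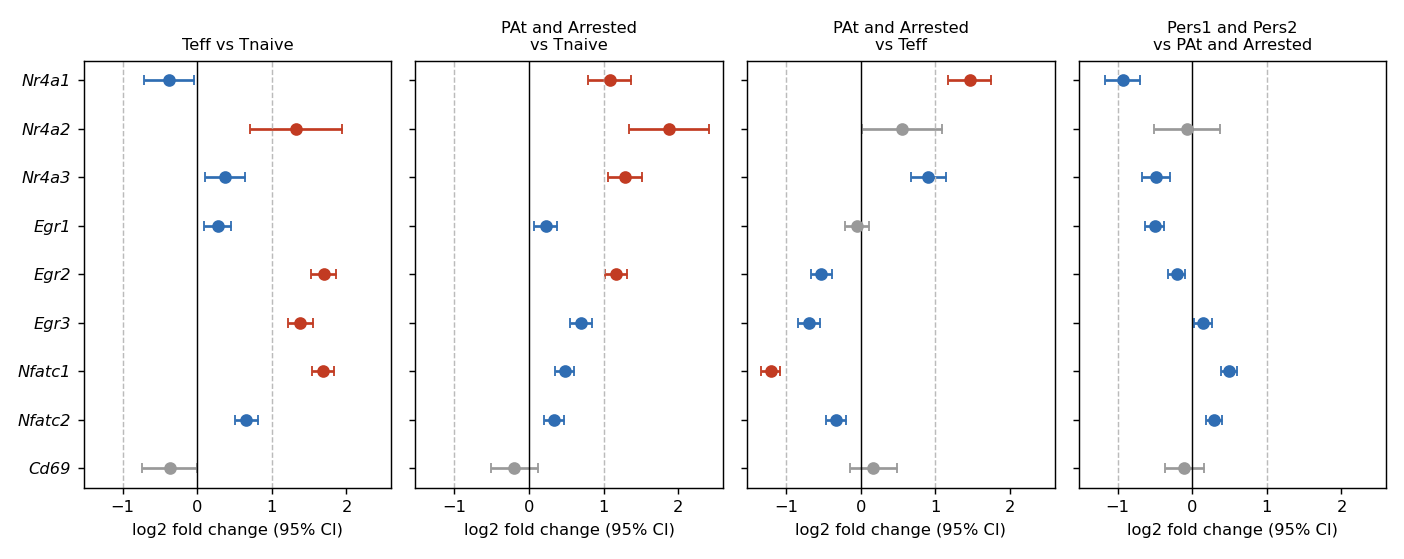
Log2 fold change of the 9 genes (x axis) in 4 comparisons of populations, with the 95% confidence interval of limma as bars. Red points were called, blue points passed the adjusted p alone, grey points passed neither, and dashed lines mark a log2 fold change of 1 in each direction. Teff exceeds Tnaive most for Egr2 and Nfatc1, whereas Nr4a1 is highest in PAt and Arrested against both Tnaive (1.08) and Teff (1.46).

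The shift of the persistent populations was then compared with the shift of Teff over Tnaive, and 8 of the 9 genes shifted unequally. The shifts start from unlike cells, since Cd44 was 11.96 to 12.05 in PAt and 11.70 to 11.94 in Arrested, against 9.47 to 9.72 in Tnaive. Nr4a2 (1.88), Egr2 (1.17), Egr3 (0.70) and Nfatc1 (0.48) were already higher in PAt and Arrested than in Tnaive. A smaller shift of Timer+ cells therefore does not show a weaker response to activation. The difference of both shifts, that of Pers1 and Pers2 over PAt and Arrested minus that of Teff over Tnaive, was called lower for 4 of the 9 genes and higher for none, against 6.9% of tested genes called lower and 1.52% higher. It was -1.90 ± 0.10 (SE) for Egr2 (adjusted p = 1.17e-12), -1.39 ± 0.36 (SE) for Nr4a2 (adjusted p = 0.0032), -1.24 ± 0.10 (SE) for Egr3 (adjusted p = 1.51e-09) and -1.19 ± 0.088 (SE) for Nfatc1 (adjusted p = 3.54e-10). Without Teff replicate 1 the value of Nr4a2 was -0.96, under the fold threshold. Nr4a3 (-0.87), Egr1 (-0.78), Nr4a1 (-0.55) and Nfatc2 (-0.36) passed the adjusted p alone, as 48.7% of tested genes did at any fold, but that of Nr4a1 missed it without Teff replicate 1 (adjusted p = 0.112) or Tnaive replicate 3 (0.106). With robust moderation Nr4a1 missed it too (0.0815). Cd69 had 0.26 (adjusted p = 0.338).

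**Figure D3:**
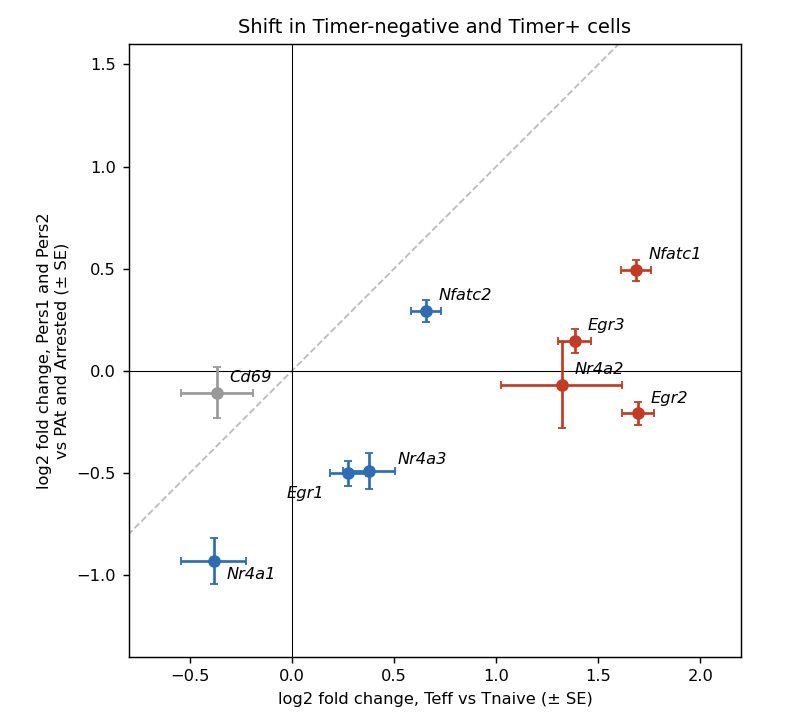
Log2 fold change of Pers1 and Pers2 against PAt and Arrested (y axis) over that of Teff against Tnaive (x axis) for the 9 genes, each with its SE as bars, and a dashed line where both are equal. Red points were called for the difference of the 2 shifts, blue points passed its adjusted p alone, and Cd69 (grey) passed neither. Cd69 sits above the line and the other 8 genes below it, Egr2 lying farthest from it, at 1.69 in Timer-negative cells and -0.21 in Timer+ cells.

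Treg were also compared directly with Timer-negative cells. Against Tnaive, the PAt and Arrested cells had more Nr4a2, Nr4a3, Egr2 and Nr4a1 RNA. These 4 genes were called higher and none lower, against 6.63% of tested genes called higher. Nr4a2 was 3.68-fold higher (1.88 ± 0.26 (SE), adjusted p = 2.69e-06), Nr4a3 2.44-fold (1.28 ± 0.11 (SE), adjusted p = 2.64e-09), Egr2 2.25-fold (1.17 ± 0.069 (SE), adjusted p = 5.3e-12) and Nr4a1 2.12-fold (1.08 ± 0.14 (SE), adjusted p = 1.07e-06). The Nr4a1 value was 0.93, under the fold threshold, without Tnaive replicate 3. Egr3 (0.70), Nfatc1 (0.48), Nfatc2 (0.33) and Egr1 (0.22) were higher at the adjusted p alone, which 26.9% of tested genes passed upwards, and Egr1 missed it without Tnaive replicate 1 (adjusted p = 0.191). Egr1 also missed it when only these populations were fitted (0.0603). For Cd69 the difference was -0.20 (adjusted p = 0.298). B cell markers moved alongside, 9 of the 10 being called higher in PAt and Arrested than in Tnaive, and of the handling genes 10 of 25 were higher and 1 lower at the adjusted p. The part of either list was not tested.

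Against Teff, PAt and Arrested cells had 2.76-fold more Nr4a1 (1.46 ± 0.14 (SE), adjusted p = 1.19e-08) and 0.434 times the Nfatc1 (-1.21 ± 0.062 (SE), adjusted p = 6.34e-13), the only members called, against 6.88% of tested genes. At the adjusted p alone, which 52.7% of tested genes passed, Nr4a3 was higher (0.91), and Egr3 (-0.69), Egr2 (-0.52) and Nfatc2 (-0.33) were lower. Nr4a2 had 0.56 (adjusted p = 0.0728), and passed with the replicate block (0.00258) and without Teff replicate 1 (0.99, adjusted p = 0.00135). Egr1 had -0.05 (adjusted p = 0.6) and Cd69 0.17 (adjusted p = 0.364). The handling list, which holds Nr4a1, moved here too, with 15 of its 25 genes higher and 1 lower at the adjusted p and a median of 0.40, and its part was not tested.

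The persistent populations, which were compared with the same Teff libraries, had no member called against 8.31% of tested genes. At the adjusted p, which 58.7% of tested genes passed, Nr4a1 (0.54) and Nr4a3 (0.42) were higher, and Egr2 (-0.73), Nfatc1 (-0.71), Egr1 (-0.55) and Egr3 (-0.54) were lower. Nr4a2 had 0.49 (adjusted p = 0.108), and passed with the block (0.00611) and without Teff replicate 1 (0.92, adjusted p = 0.00207). Nfatc2 had -0.03 with an interval of -0.17 to 0.10 (adjusted p = 0.686), and Cd69 0.06 with -0.25 to 0.38 (adjusted p = 0.749). Macrophage, monocyte and dendritic cell markers were lower in both comparisons with Teff, 9 of the 11 tested being called. Of the 7 tested NK and CD8 cell markers, 6 were called lower in the persistent populations and 4 in PAt and Arrested, and of the 10 B cell markers 9 and 1 were. Of the handling genes 9 of 25 were higher in the persistent populations than in Teff and 7 lower at the adjusted p. The part of these cells and of handling was not tested.

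Within the pairs of Treg populations few differences were seen. Between Pers2 and Pers1 none of the 9 was called, against 0.19% of tested genes, and Egr3 alone passed the adjusted p, against 10.6%. Egr3 in Pers2 was 0.654 times its Pers1 level (-0.61 ± 0.081 (SE), adjusted p = 5.05e-05), and its libraries did not overlap. Nr4a2 (0.62, adjusted p = 0.204) and Nr4a3 (0.30, adjusted p = 0.154) were higher in every Pers2 library than in any Pers1 library, and passed with the block (0.0163 and 0.0138). They also passed when only these populations were fitted (0.0193 and 0.0299). Every Pers2 library also lay below every Pers1 library for Egr1 (-0.11, adjusted p = 0.479). Non-overlap of the 3 libraries was seen for 31.9% of tested genes. Between Arrested and PAt no member passed either threshold, against 0.121% and 5.04% of tested genes. With the block, Nr4a3 (-0.30, adjusted p = 0.204 without it and 0.0201 with it) and Egr3 (0.24, adjusted p = 0.104 and 0.0203) passed the adjusted p. Egr3 also passed without Arrested replicate 2 (0.34, adjusted p = 0.0177), and Egr1 without PAt replicate 3 (0.33, adjusted p = 0.0274).

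The genes that control NFAT were called about as often as other genes in the persistent populations. Of 28 tested genes of calcineurin, its inhibitors, NFAT kinases and calcium entry, 2 were called when persistent cells were compared with PAt and Arrested cells, where 7.51% of all tested genes were. Fkbp1a, the protein through which the drug FK506 blocks calcineurin, was higher (1.13), and Dyrk2, an NFAT kinase, was lower (-1.11). Between Teff and Tnaive Lrrk2 alone, a kinase described as a brake on NFAT, was called (2.41), beside 8.88% of tested genes called higher and 2.28% lower, and it was called higher in PAt and Arrested than in Tnaive (1.40), where the calcineurin subunit Ppp3cc was lower (-1.31). All 10 B cell markers were called higher in the former comparison and 9 in the latter. Their part in the Lrrk2 values was not tested. The median fold change of the list was between -0.15 and 0.02 in the 7 comparisons of populations. Of 9 partners of Egr and serum response factor, none was called in any comparison. The shares of tested genes called were, for example, 8.88% higher in Teff than in Tnaive and 8.31% in the persistent populations against Teff. At the adjusted p, 7 were lower in the persistent populations than in Teff and 1 was higher, beside 58.7% of tested genes. In the difference of both shifts 7 were lower and 1 higher (48.7%). In Teff over Tnaive 5 were higher (31.3%) and 0 lower.

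Other genes induced through the T-cell receptor moved both ways. Of 42 tested, 14 were called higher in Teff than in Tnaive, against 8.88% of all tested genes, led by the cytokine genes Il21 (5.42) and Il4 (3.54) with the factors Bhlhe40 (4.44) and Irf8 (3.73), and Myc (-1.81) and Jun (-1.09) were called lower, against 2.28%. Markers of B cells and of macrophages, monocytes and dendritic cells were also called higher in Teff, and their part was not tested. In the persistent populations against PAt and Arrested, Irf4, a factor of effector Treg, was called higher (1.43) and 5 were called lower, with Jun (-2.09), Myc (-1.68), Fosb (-1.53) and Fos (-1.46) leading, where 7.51% of all tested genes were called in either direction. For the difference of both shifts, 20 of the 42 were called lower and none higher, beside 6.9% and 1.52% of all tested genes. Among 20 genes of inhibitory receptors and other brakes, 4 were called higher in the persistent populations, the receptors Havcr2 (3.92), Tigit (2.09), Lag3 (1.79) and Ctla4 (1.69), and none lower, beside the same 7.51%. Of 7 tested genes that act with Cd69 in egress from the node, Ccr7 (-1.37), a homing receptor, and Klf2 (-1.11), which drives S1pr1, were called lower there.

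Between replicates, 6 of the 9 genes shared their highest replicate. Replicate 1 was the highest of the 3 in all 6 populations for Nr4a1, Nr4a2, Nr4a3, Nfatc1, Nfatc2 and Cd69, a pattern noticed after the values were seen. In the fit with the replicate as a block, replicate 1 exceeded the mean of replicates 2 and 3 by 0.66 ± 0.10 (SE) for Nr4a2 (adjusted p = 0.000487), 0.39 for Nr4a1 (2.79e-06), 0.35 for Cd69 (0.00526) and 0.25 for Nr4a3 (0.00314). Smaller differences passed for Nfatc2 (0.15, adjusted p = 0.0056) and Nfatc1 (0.14, adjusted p = 0.011). Egr1 (-0.13, adjusted p = 0.0839), Egr2 (0.03, adjusted p = 0.759) and Egr3 (0.08, adjusted p = 0.288) did not pass. Over all tested genes, 2.13% were higher in replicate 1 at the adjusted p and 4.37% differed in either direction. Replicate 3 stood apart the other way for 2 of these genes, with Nr4a1 (-0.28, adjusted p = 0.000157) and Nr4a2 (-0.46, adjusted p = 0.0156) below the mean of replicates 1 and 2, and 2.87% of tested genes differed in it. Replicate 2 was the lowest in all 6 populations for Egr3 and in 5 for Egr2 and for Nr4a3. Of the members only Nr4a3 passed there (-0.23 against replicates 1 and 3, adjusted p = 0.0472), beside 0.212% of tested genes.

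Some heat shock and other handling genes, chosen after their values were seen, also differed by replicate, and others did not. Hspa1a (-1.62), Hspa1b (-1.55), Dnajb1 (-0.45), Fosb (-0.43) and Jun (-0.38) were lower in replicate 1, and Junb (0.49), Dusp1 (0.33), Nfkbia (0.28) and Zfp36 (0.21) were higher, while Cd3e (0.01) and Cd4 (-0.01) did not pass. Hspb1 (-0.29) and Hsp90aa1 (-0.18) were also lower in replicate 1, whereas the chaperone gene Dnaja1 was higher (0.14, adjusted p = 0.0319). Of the same list, Fos, Hspa8, Hspe1, Jund, Atf3, Ier2, Ier3, Btg2, Socs3, Klf4 and Klf6 did not pass. Of all tested genes 4.37% differed in replicate 1. Against the mean of replicates 1 and 2, replicate 3 had more Hspa1a (1.53), Hspa1b (1.43), Dnajb1 (0.38), Jun (0.35) and Hspb1 (0.31). It had less Junb (-0.45), Dusp1 (-0.26), Klf6 (-0.26) and Zfp36 (-0.21), and the other handling genes, members apart, did not pass. The part of the handling genes in the members' difference was not tested. When the 6 libraries of replicate 1 were left out, no member gained or lost a call in the comparisons of populations. Egr1 between Teff and Tnaive (0.19, adjusted p = 0.0798) and Egr2 in persistent over PAt and Arrested cells (-0.17, adjusted p = 0.0612) then missed the adjusted p, and the fold changes of Nr4a2 against Teff passed the adjusted p (0.75 in the persistent populations, adjusted p = 0.000518, and 0.79 in PAt and Arrested, adjusted p = 0.000369). Without them Nr4a2 was also higher in Pers2 than in Pers1 (0.68, adjusted p = 0.0349) and lower in Arrested than in PAt (-0.77, adjusted p = 0.0286).

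**Figure D4:**
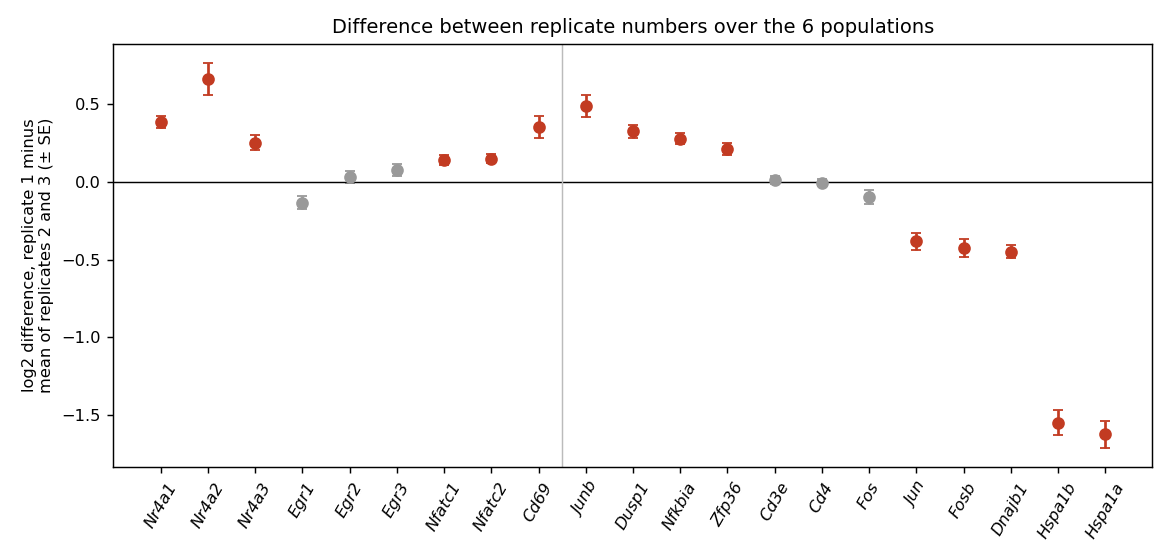
Log2 difference between replicate 1 and the mean of replicates 2 and 3 over the 6 populations (y axis), from the fit with the replicate as a block, for the 9 genes (left of the line) and for 12 other genes chosen after their values were seen (right). Bars show the SE, red points passed the adjusted p of 0.05 and grey points did not. Nr4a2 is highest at 0.66, and Hspa1a is lowest at -1.62.

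Deviations from the population means are given as a description, since the 18 libraries share their pools and normalisation. Over them, Nr4a1 went with Nr4a2 (Pearson r = 0.82) and Cd69 (0.78), Egr2 with Egr3 (0.82) and Nfatc1 with Nfatc2 (0.84). Pairs from different families were about as close, such as Nr4a3 with Nfatc2 (0.79) and Nr4a1 with Nfatc1 (0.78). Egr1 went the opposite way to Cd69 (-0.68), Nfatc1 (-0.64) and Nr4a1 (-0.53). The replicate differences given above enter these deviations. Across the 18 libraries as they are, the genes most like each member were found by Pearson r among genes with an SD of at least 0.5. Nr4a1 was most like Adamtsl4 (r = 0.94), Nr4a2 like Rgs1 (0.92), and Nr4a3 like Plagl1 (0.95). Egr1 was closest to Cd9 (0.88), Egr2 to Tnfsf14 (0.99), a ligand of the TNF family, and Egr3 to Trpm6 (0.93). The genes closest to Nfatc1 and Nfatc2 were Asb2 (0.98) and Mpp2 (0.97). For Cd69 the closest were Sik1 (0.81) and Tnfaip3 (0.74), a brake on NF-kB.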

How the data were processed

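RNA-seq of 18 libraries from 6 sorted T-cell populations was analysed. Per the labels and the study's methods, sorted cells went into stranded mRNA libraries, and CASAVA 1.8.2, FastQC 0.11.2, TopHat2 2.0.9 (mm10, with or without the Timer gene) and DESeq2 processed paired-end reads of 100 bp. The read counter and annotation are not given in the sources used here. The values the authors deposited are log2 normalised counts for 15402 genes (-0.02 to 18.89, with 173 values below 0 and library medians of 8.96 to 9.16). No counts were used, so the depth is unknown, and precision rests on the replicates. Whether the transform shrank weak genes, which would understate their fold changes, is not given in the sources used here.

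All 18 columns were used as deposited. Genes with a mean of at least 3 were tested (13190, leaving out 2212) in 1 linear model of the 6 populations with limma 3.58.1 in R 4.3.3, which has 12 residual degrees of freedom, a variance trend and Benjamini-Hochberg adjustment over all tested genes. Every adjusted p is from limma. On simulated data for Pers1 and Pers2 against PAt and Arrested (13187 genes), it recovered 99 of the 100 genes set 1.5 apart on the log2 scale and 100 of the 100 set 3 apart, with 0 false calls. The simulated libraries had independent normal noise and no replicate difference, unlike the real ones. False calls in the real fits are therefore not measured by it. Nothing states that samples beyond the pools were independent, so p-values measure the spread between these pools.

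The 9 members and all gene lists were chosen with earlier results of these data known. All members are named. Of other lists at most the 4 largest called changes per direction were named, and for likeness the tested genes with the highest r, up to 3 per member. The replicate number was taken to pair libraries, since the design text has all populations sorted from the same animals. As a check, deviations from population means of 45 pairs with the same number had a median r of 0.17 (42 above 0), against -0.06 for 90 pairs with different numbers. A fit with the replicate as a block was an alternative, as were other filters, moderations, normalization, samples in the fit, thresholds and leaving out each library. Coordinates are from GENCODE vM21 (GRCm38), promoters from RefSeq (GRCm38.p6), and figures from Python 3.11 with matplotlib 3.10.9.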

Additional observations from a re-analysis of the deposited data

Results flagged for a closer look

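For 4 of the 9 genes the shift of Timer+ cells, Pers1 and Pers2 over PAt and Arrested, differed from the shift of Timer-negative cells, Teff over Tnaive, by a test of the difference itself in limma and by more than 1 on the log2 scale. The difference was -1.90 for Egr2 (adjusted p = 1.17e-12), with shifts of -0.21 and 1.69. Nr4a2 had -1.39 (adjusted p = 0.0032), with shifts of -0.07 and 1.32, and -0.96 without Teff replicate 1. Egr3 had -1.24 (adjusted p = 1.51e-09), with shifts of 0.15 and 1.38. Nfatc1 had -1.19 (adjusted p = 3.54e-10), with shifts of 0.49 and 1.68. PAt and Arrested cells already held more RNA of these 4 genes than Tnaive cells, as given above, so the shifts start from unlike levels. The shift of Timer+ cells was the lower one for each of the 4, and 6.9% of all tested genes were called lower for this difference. All 10 B cell markers and 10 of the 11 tested markers of macrophages, monocytes and dendritic cells were called lower in the same difference, and their part was not tested.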

How the results depend on the processing

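Of the members' fold changes under all alternatives, 1262 kept their direction and side of both thresholds together, 4 lost a call, 30 gained one and 18 turned direction. The 30 came from dropping the fold threshold. With an adjusted p under 0.05 alone, the genes called were 7785 for Teff over Tnaive (1472 with the fold threshold), 9357 for the persistent populations over PAt and Arrested (990), 1395 for Pers2 over Pers1 (25), 665 for Arrested over PAt (16), 7739 for the persistent populations over Teff (1096), 6950 for PAt and Arrested over Teff (908), 6684 for PAt and Arrested over Tnaive (1042) and 6420 for the difference of shifts (1110). The members called were then 8, 7, 1, 0, 6, 6, 8 and 8 in the same order, in place of 4, 0, 0, 0, 0, 2, 4 and 4. The cause of the 4 lost calls, given with their values above, was not tested.

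Leaving out 1 library at a time turned the direction of values near 0. For Arrested over PAt, Nr4a1 ranged from -0.238 to 0.0456, Egr2 from -0.0656 to 0.0688 and Cd69 from -0.194 to 0.0910, and the genes called from 12 to 26, the latter without Arrested replicate 3. For Pers2 over Pers1, Nfatc2 ranged from -0.0041 to 0.10 and Cd69 from -0.11 to 0.0030. Against Teff, Cd69 ranged from -0.12 to 0.24 in the persistent populations and from -0.0140 to 0.351 in PAt and Arrested, and Nfatc2 from -0.0933 to 0.00028 in the persistent populations. Cd69 ranged from -0.383 to 0.0337 in PAt and Arrested over Tnaive, and Nr4a2 from -0.170 to 0.0879 in the persistent populations over PAt and Arrested. Without the 6 libraries of replicate number 1, an alternative added after the data were seen, Egr2 turned to -0.0039 in Arrested over PAt and Egr1 to 0.017 in PAt and Arrested over Teff. With the replicate block that the pairing allows, 21 of the 45 neighbouring populations differed in place of 15, and no member gained or lost a call at both thresholds. The depth of the libraries is unknown, so counting error could not be set apart.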
